A study of Mus musculus with 18 samples.

Results

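Calcium entry and NFAT activation link the B cell receptor (BCR) to gene transcription, and 10 genes of this route were followed in WEHI-231 cells, an established murine line of an immature B cell lymphoma. The genes, chosen by symbol, were Itpr1, Itpr2, Stim1, Stim2, Orai1, Ppp3ca, Rcan1, Nfatc1, Nfatc2 and Nfatc3, and all 10 of them were found among the 55487 Ensembl genes of the count tables and passed the filter on low counts. RNA was sequenced in 18 libraries, 2 from independent experiments for each of 9 groups. Parental cells (WT in the labels) and 2 clones with mutated TFEB, #A-59 and #B-20, were harvested unstimulated (0 h) or after 6 h or 18 h with anti-mouse IgM F(ab')2 at 10 µg/ml. Each clone grew from a single cell after CRISPR/Cas9 editing of Tfeb, so that a difference between a clone and the parental line cannot be told apart from clonal variation, and no unedited clone was analysed here. In these bulk samples, fewer cells that express a gene and less RNA per cell cannot be told apart. Values are levels in counts per Mio (CPM, scaled by TMM factors) or differences in log2 fold change with the standard error (SE) from edgeR's quasi-likelihood fit. A gene "passed the test" at an adjusted p (FDR) under 0.01 and was a differentially expressed gene (DEG) where the log2 fold change was also above 1 or below −1.

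When the BCR is engaged, phospholipase C gamma produces inositol trisphosphate (IP3), which opens IP3 receptors in the endoplasmic reticulum. The fall in stored calcium is sensed by STIM proteins, which then open Orai channels in the plasma membrane. Entering calcium activates the phosphatase calcineurin through calmodulin, and calcineurin removes phosphates from NFAT factors, which move into the nucleus and often act on DNA together with AP-1. Calcineurin can also act on TFEB, a factor of lysosomal and autophagy genes that binds E-boxes of the CLEAR type. In human Ramos B cells, however, the authors reported that calcineurin inhibition left the BCR-induced entry of TFEB into the nucleus unaffected. RCAN proteins bind calcineurin and dampen it.

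Rcan1 has separate promoters, and the stretches before them are shown because the gene was lower in both clones after stimulation. RefSeq windows of 250 bases before a start were used for 7 of the 10 genes, in 10 windows of GRCm38.p6. No window was used for Nfatc1, Itpr1 and Ppp3ca. In these windows 3 kinds of letters were searched on both strands and marked. These were GGAAA (the NFAT core), CACGTG (the E-box core) and TGACTCA (AP-1), and no match of one overlapped a match of another. GGAAA was present in 4 of 10 windows, against 55.6% of all 32851 RefSeq windows of this length. CACGTG was found in 2 windows, against 6.02% of all windows, and TGACTCA in 1 window, against 4.46%. The bases from 250 to 131 before the start are printed 5′ to 3′ on the strand of the gene, and capitals mark matches on either strand.
Rcan1, upstream start, minus strand, chr16:92466300-92466419: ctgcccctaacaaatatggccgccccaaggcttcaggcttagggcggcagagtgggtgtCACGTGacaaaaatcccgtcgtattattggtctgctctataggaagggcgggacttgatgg
Rcan1, internal start, minus strand, chr16:92400209-92400328: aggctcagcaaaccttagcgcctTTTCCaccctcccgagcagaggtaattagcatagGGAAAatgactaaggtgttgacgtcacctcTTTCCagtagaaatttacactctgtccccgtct
Nfatc3, downstream start, plus strand, chr8:106059340-106059459: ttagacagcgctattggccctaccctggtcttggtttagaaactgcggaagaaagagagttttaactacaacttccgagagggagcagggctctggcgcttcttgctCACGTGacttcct
Nfatc2, upstream start, minus strand, chr2:168601788-168601907: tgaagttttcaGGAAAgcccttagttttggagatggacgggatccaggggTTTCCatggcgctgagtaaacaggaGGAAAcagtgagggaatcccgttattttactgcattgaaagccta

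In the upstream window of Rcan1 the E-box began 191 bases before the start. The internal window held 3 matches of GGAAA, at 227, 193 and 163 bases before the start, and TGACTCA at 110 bases, beyond the printed stretch. The E-box of Nfatc3 began 143 bases before its downstream start, and Nfatc2 had 3 matches of GGAAA before its upstream start. These windows of Stim1, Stim2, Orai1 and Itpr2 held none of these letters. A match is a description of the letters, and the counts cover the whole gene, so that the use of one or the other start of Rcan1 is not resolved.

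Library totals ranged from 11223588 to 29655262 counts. Of the B cell markers, Cd79a ranged over all libraries from 793.5 to 1935 CPM, Ighm from 2434 to 4733 CPM and Pax5 from 1017 to 2384 CPM, whereas the 5 T cell, 5 myeloid and 4 fibroblast markers summed to at most 0.985, 3.41 and 0.675 CPM. In the replicate 2 library of #B-20 at 6 h, the 100 most abundant genes took 19.0% of the counts, against 15.3% to 17.3% elsewhere. Results of the 10 genes that turn on this library are also given without it. Other genes named below are given only with it. Tfeb itself, the mutated gene, was lower in every library of a clone (25.5 to 54.1 CPM) than in every parental library (79.2 to 99.9 CPM). Its log2 fold changes were between −1.66 and −0.81 in the 6 comparisons with parental cells, and all 6 passed the test.

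Levels of the 10 genes can be ordered only after division by the exon length. In untreated parental cells the mean was 63.4 CPM per kb for Nfatc1 and 29.8 for Nfatc3. It was 12.6 CPM per kb for Ppp3ca, 10.0 for Itpr2, 8.97 for Stim1, 7.69 for Itpr1, 6.83 for Orai1 and 5.98 for Stim2. Rcan1 followed at 3.45 and Nfatc2 at 2.10 CPM per kb. Orai1 had 14.9 and 20.9 CPM in its libraries, so that its place among Itpr1, Stim1 and Stim2 is not fixed by these data. Of the NFAT genes chosen, Nfatc1 was thus the highest per kb and Nfatc2 the lowest in all 9 groups. Per kb, other family members exceeded those chosen here in several cases. Ppp3cb, the beta isoform of the calcineurin catalytic subunit, stood at 23.7 CPM per kb in untreated parental cells, Itpr3 at 20.5, and Orai3 at 31.2.

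**Figure D1:**
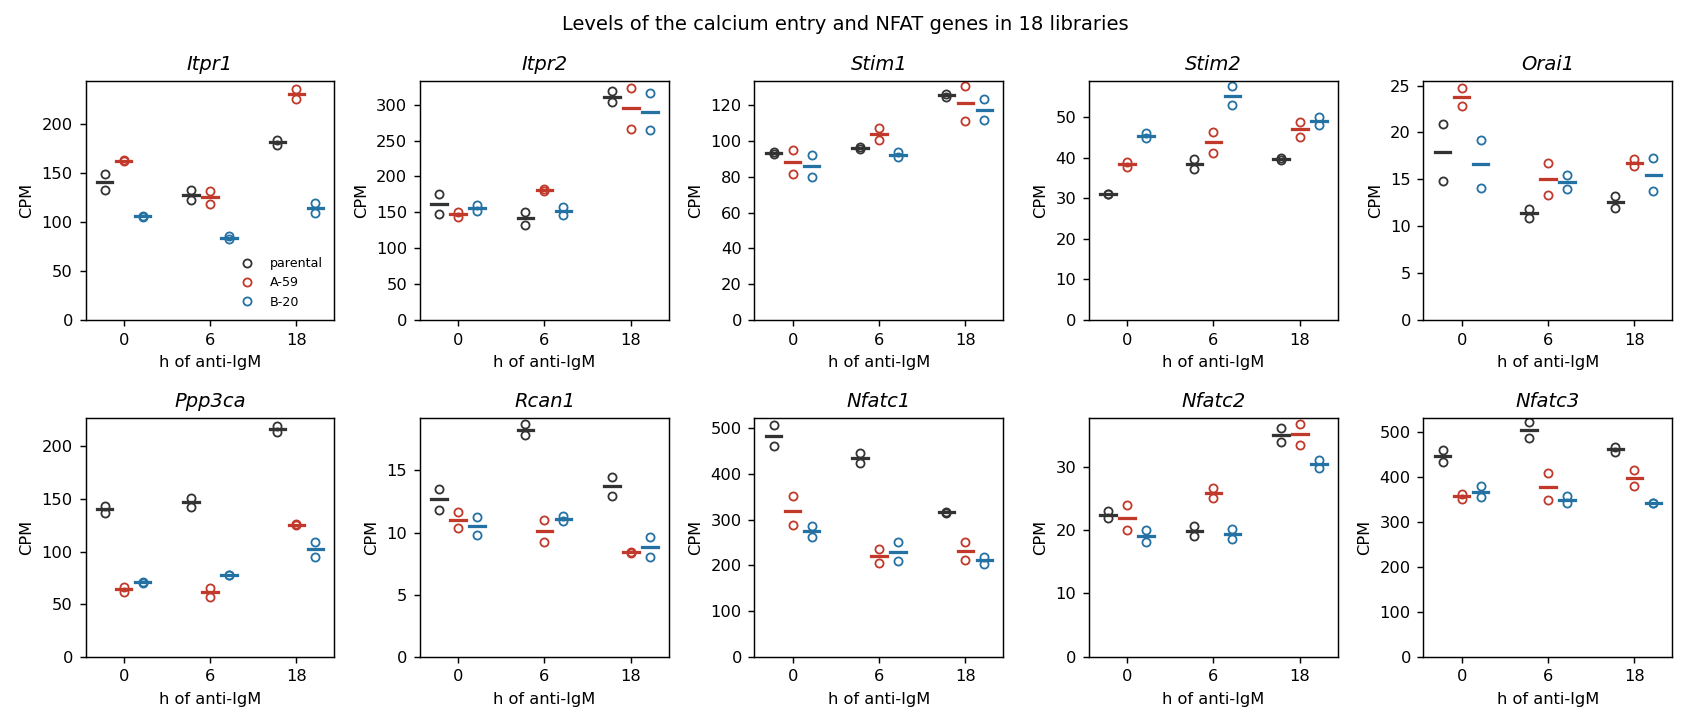
Levels of the 10 genes in CPM (linear axis from 0) against hours of anti-IgM, with 1 circle for each of 18 libraries and a bar at the mean of the 2 libraries of a group, for parental cells (black), #A-59 (red) and #B-20 (blue). Ppp3ca and Nfatc1 show parental libraries above all libraries of both clones of the same time, and Itpr1 of #B-20 lies lowest at each time.

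The first question was whether the genes differ between TFEB mutant and parental cells. Ppp3ca, which encodes the alpha isoform of the calcineurin catalytic subunit, was lower in both clones at all times, by up to 2.39-fold. Nfatc1 was lower as well in both clones and at all times, and Rcan1 was lower after 6 h and 18 h of BCR stimulation. Itpr1 was lower in #B-20 but not in #A-59, and Stim2 was higher in #B-20 at 0 h and 6 h. Of 10 genes, #A-59 had 2 past the test at 0 h, 4 at 6 h and 4 at 18 h, beside 9.56%, 22.7% and 10.4% of all 15318 genes tested. #B-20 had 4, 6 and 5, beside 10.7%, 14.2% and 14.2%. Over the 60 values, 25 passed the test, 22 of them lower in a clone. Lower calls made up 4.47%, 11.3% and 5.68% of all genes for #A-59 at 0, 6 and 18 h, and 6.66%, 8% and 8.55% for #B-20. The 3 DEGs were all Ppp3ca, where DEGs made up 4.78%, 7.91% and 4.92% of all genes for #A-59 and 5.16%, 6.73% and 6.21% for #B-20. The median of all tested genes stayed between −0.02 and 0.01 on the log2 scale in these comparisons, whereas the median of the 10 genes was between −0.32 and 0.04. Both clones were set against the same parental libraries, so that their values are not independent of each other.

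The phosphatase subunit gene Ppp3ca (ENSMUSG00000028161, chromosome 3 of GRCm38 from 136669714 to 136937727) had 137 and 144 CPM in parental libraries before stimulation, 143 and 150.5 CPM after 6 h and then 219 and 214 CPM after 18 h. In #A-59 the level was 61.9 and 66.7 CPM before stimulation, 57.2 and 65.6 CPM after 6 h and then 125 and 126 CPM after 18 h. For #B-20 it was 70.3 and 71.5 CPM before stimulation, 77.9 CPM in both libraries after 6 h and then 95.1 and 109 CPM after 18 h. No library of a clone reached a parental library of the same time. In #A-59 the log2 fold change was −1.13 without stimulation (SE 0.09, adjusted p = 2.44e-08), then −1.26 after 6 h (adjusted p = 4.29e-09) and lastly −0.79 after 18 h (adjusted p = 2.65e-06). For #B-20 it was −0.98 without stimulation (adjusted p = 1.49e-07), then −0.91 after 6 h (adjusted p = 2.92e-07) and lastly −1.08 after 18 h (adjusted p = 3.06e-08). All 6 calls were kept under every alternative run, including each library left out in turn. The other catalytic subunits, Ppp3cb and Ppp3cc, and the regulatory subunit Ppp3r1 did not pass the test in any of the 6 comparisons. For Ppp3cb the log2 fold changes were between −0.08 and 0.25. Ppp3ca made up 30.7% ± 0.72 (SD, n = 2) of the summed CPM per kb of the catalytic subunits in untreated parental cells, 17.4% in untreated #A-59 and 17.8% in untreated #B-20 cells. At 18 h the shares were 42.2%, 29.0% and 25.2%.

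Rcan1 (ENSMUSG00000022951, chromosome 16 from 92391951 to 92466169), the inhibitor of calcineurin, had 13.5 and 11.8 CPM in untreated parental cells and 18.7 and 17.8 CPM at 6 h. At 18 h, parental cells held 14.45 and 12.97 CPM. The levels of #A-59 were 11.7 and 10.4 CPM before stimulation, 10.98 and 9.24 CPM after 6 h and then 8.38 and 8.44 CPM after 18 h. Those of #B-20 were 11.2 and 9.80 CPM before stimulation, 11.3 and 10.9 CPM after 6 h and then 7.996 and 9.62 CPM after 18 h. Parental libraries thus stood highest at 6 h, where no library of a clone rose above 11.3 CPM, and at 0 h the groups lay close to each other. At 0 h neither clone passed the test, with a log2 fold change of −0.20 (adjusted p = 0.402) in #A-59 and −0.27 (adjusted p = 0.209) in #B-20. At 6 h it was −0.84 in #A-59 (SE 0.14, adjusted p = 8.89e-05) and −0.72 in #B-20 (adjusted p = 0.000663), and at 18 h −0.70 (adjusted p = 0.00209) and −0.63 (adjusted p = 0.00263). Without the replicate 2 library of #B-20 at 6 h the adjusted p of #B-20 at 6 h was 0.0107. At 18 h the call of #A-59 was lost without any of its 4 libraries, parental or #A-59 (adjusted p from 0.0103 to 0.0326). The call of #B-20 at 18 h was lost without either parental library or the replicate 1 library of #B-20 of that time (adjusted p from 0.0126 to 0.043) and with only the groups compared in the fit (adjusted p = 0.0188).

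Among the NFAT factors, Nfatc1 (ENSMUSG00000033016), which is known to be induced through its own NFAT-bound promoter in lymphocytes, had 460.2 and 508 CPM in untreated parental cells. Parental levels were 424 and 446 CPM after 6 h and then 318 and 315 CPM after 18 h. In #A-59 they were 352 and 288 CPM before stimulation, 236 and 206 CPM after 6 h and then 251 and 213 CPM after 18 h. #B-20 had 263 and 286 CPM before stimulation, 251 and 209 CPM after 6 h and then 218 and 204 CPM after 18 h. Each library of a clone was below both parental libraries of its time, and the gap was widest at 6 h. In #A-59 the log2 fold change was −0.60 without stimulation (adjusted p = 0.00085), then −0.98 after 6 h (adjusted p = 2.43e-06) and lastly −0.45 after 18 h (adjusted p = 0.00935). That of #B-20 was −0.82 (adjusted p = 3.33e-05), −0.92 (adjusted p = 6.29e-06) and −0.58 (adjusted p = 0.000824). The #A-59 call at 18 h was lost in 12 of 18 fits without 1 library, namely any parental library, any library of 18 h and either 0 h library of #B-20 (adjusted p from 0.0125 to 0.146), and with DESeq2's size factors or the filter of 10 counts per library (adjusted p up to 0.0106). At 0 h the #A-59 call was lost without replicate 2 of parental or #A-59 cells (adjusted p from 0.0199 to 0.0316), and the #B-20 call at 18 h without replicate 1 of parental or replicate 2 of #B-20 cells (adjusted p from 0.0104 to 0.0148).

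Nfatc3 (ENSMUSG00000031902, chromosome 8 from 106058818 to 106130537) had 434 and 460.1 CPM in untreated parental cells, 488 and 523 CPM after 6 h and then 457 and 466 CPM after 18 h. The libraries of #A-59 ranged from 349 to 416 CPM and those of #B-20 from 342 to 379 CPM. All libraries of both clones were therefore below all parental libraries. Differences were nevertheless small, with log2 fold changes of −0.32, −0.42 and −0.21 for #A-59 at 0, 6 and 18 h and −0.28, −0.53 and −0.43 for #B-20. The test was passed at 6 h by #A-59 (adjusted p = 0.000836) and by #B-20 (adjusted p = 0.000112), and at 18 h by #B-20 (adjusted p = 0.000942). The #A-59 call was lost without replicate 2 of parental or replicate 1 of #A-59 cells at 6 h (adjusted p from 0.0103 to 0.0177) and with only the groups compared (adjusted p = 0.0548). The 18 h call of #B-20 was lost without either parental library of that time (adjusted p from 0.0102 to 0.0162). At 0 h the value of #A-59 (adjusted p = 0.0125) was called under DESeq2, the replicate block, the GC offset and both together. That of #B-20 at 0 h (adjusted p = 0.0266) was called under the GC offset with or without the block. Nfatc3 shares 2626 exon bases with Esrp2 on the opposite strand, and the counting did not use strand. Esrp2 held 6.51 to 15.9 CPM and was higher in #A-59 at 6 h, at a log2 fold change of 0.64 (adjusted p = 0.0029). In #A-59 at 18 h it was higher too, by 0.75 (adjusted p = 0.00321), with 0.55 (adjusted p = 0.0142) at 0 h. In #B-20 it did not pass the test, with 0.60 (adjusted p = 0.011) at 18 h as the highest value.

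Nfatc2 (ENSMUSG00000027544, chromosome 2 from 168476410 to 168601657) did not pass the test in any clone comparison. Its libraries ranged from 18.1 to 36.8 CPM over all groups. The log2 fold change of #A-59 at 6 h was 0.38 (95% interval from 0.17 to 0.60, approximated from the SE, adjusted p = 0.0108), and DESeq2's Wald test, the block on replicate numbers and the filter of 10 counts per library called it. In the other comparisons it was between −0.23 and 0.00.

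Itpr1 (ENSMUSG00000030102, chromosome 6 from 108213083 to 108551116) encodes the type 1 IP3 receptor and was the gene on which the clones parted. Untreated cells had 133 and 149 CPM in the parental line, 162 and 163 CPM in #A-59, and 105 and 107 CPM in #B-20. At 6 h the levels were 123 and 133 CPM, 119 and 132 CPM, and 85.4 and 82.6 CPM in the same order. At 18 h they were 183 and 179 CPM, 225 and 236 CPM, and 109 and 119 CPM. #B-20 was thus below all other libraries of each time, and #A-59 was above the parental libraries at 0 h and 18 h and between or below them at 6 h. The log2 fold change of #B-20 against parental cells was −0.41 without stimulation (SE 0.09, adjusted p = 0.00176), then −0.61 after 6 h (adjusted p = 3.03e-05) and lastly −0.67 after 18 h (adjusted p = 9.63e-06). That of #A-59 was 0.21 (adjusted p = 0.117), −0.03 (adjusted p = 0.813) and 0.35 (adjusted p = 0.00655). The 18 h call of #A-59 was lost without any of the 4 libraries compared (adjusted p from 0.0277 to 0.0774), and the 0 h call of #B-20 without replicate 2 of parental cells or either library of #B-20 (adjusted p from 0.0169 to 0.0476).

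The type 2 receptor gene Itpr2 (ENSMUSG00000030287, chromosome 6 from 146108299 to 146502258) did not pass the test in any clone. Its log2 fold changes were between −0.14 and 0.35, and the highest, #A-59 at 6 h, had a 95% interval from 0.14 to 0.57 (adjusted p = 0.0181), which passed only without a filter on low counts. The calcium sensor genes Stim1 (ENSMUSG00000030987, chromosome 7) and Stim2 (ENSMUSG00000039156, chromosome 5) behaved unlike each other. Stim1 stayed between −0.12 and 0.11 on the log2 scale in the 6 comparisons, and the widest interval reached from −0.32 to 0.07. Stim2 had 31.1 and 31.0 CPM in untreated parental cells, 37.7 and 39.0 CPM in #A-59, and 45.9 and 44.8 CPM in #B-20. At 6 h it had 37.1 and 39.5, 41.2 and 46.4, and 57.5 and 52.8 CPM in the same order. The groups did not overlap at 0 h and 6 h, with parental cells lowest and #B-20 highest. At 18 h parental cells had 39.8 and 39.3 CPM, and the clones overlapped, with 48.7 and 45.1 CPM in #A-59 and 48.1 and 49.95 CPM in #B-20. Stim2 did not pass the test in #A-59, at 0.30, 0.19 and 0.25 for the 3 times, nor in #B-20 at 18 h, at 0.31 (adjusted p = 0.0166). For #B-20 the log2 fold change was 0.55 at 0 h (SE 0.09, adjusted p = 0.00023) and 0.53 at 6 h (adjusted p = 0.000205), and both calls were kept under every alternative. The channel gene Orai1 (ENSMUSG00000049686, chromosome 5) had 10.9 to 24.8 CPM over all libraries. Its log2 fold changes were between 0.41 and 0.42 in #A-59 and between −0.10 and 0.37 in #B-20, none past the test, with an SE of up to 0.18. The GC offset and its combination with the replicate block called #B-20 at 6 h.

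**Figure D2:**
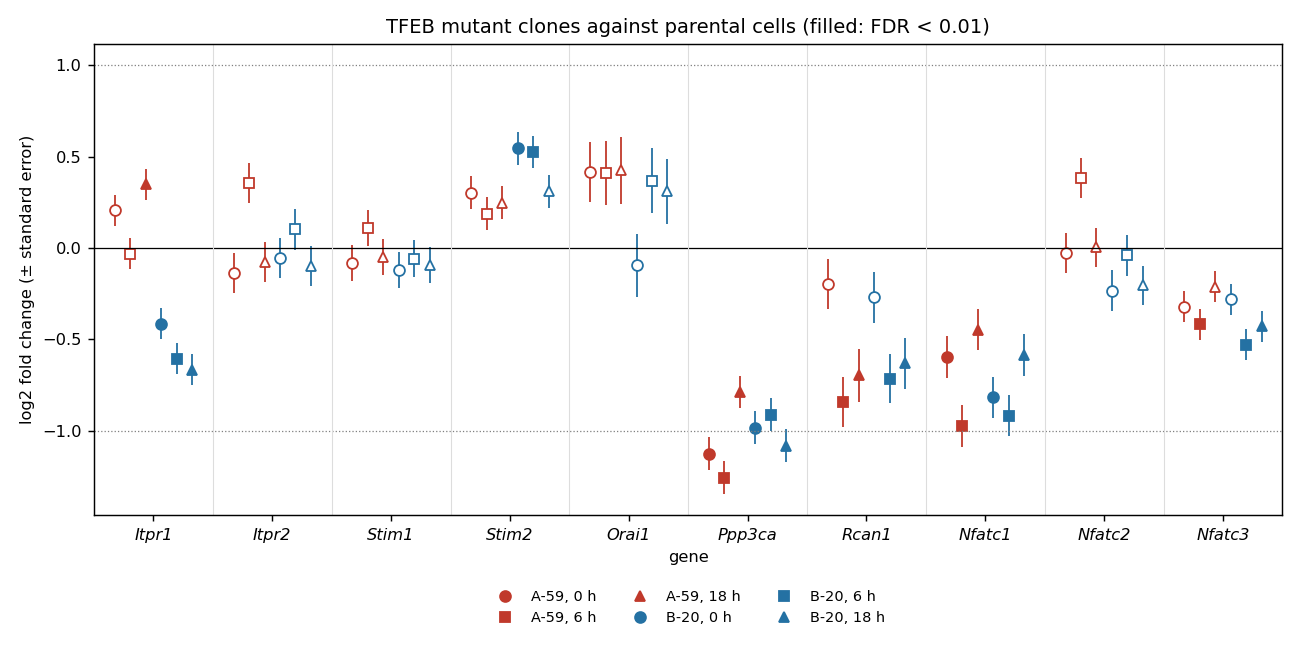
Log2 fold change of each gene in #A-59 (red) and #B-20 (blue) against parental cells at 0 h (circles), 6 h (squares) and 18 h (triangles), with bars of ± 1 SE, filled where the FDR was under 0.01, and dotted lines at the DEG limit of 1 and −1. Ppp3ca, Rcan1, Nfatc1 and Nfatc3 lie below 0 in all 6 comparisons, and Itpr1 is below 0 in #B-20 at each time.

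A further question was how the genes responded to BCR stimulation. After 6 h none of the 10 genes passed the test in parental and #B-20 cells, beside 7.34% and 1.29% of all genes tested. With an unadjusted p under 0.05 there were 4 and 3 of them, and DESeq2 called 2 and 1. In #A-59 2 genes were lower after 6 h, beside 6.14% of all genes past the test and 3.69% lower. Of the 10 genes, 7 had an unadjusted p under 0.05 there, and DESeq2 called 3. The shares of all genes at an unadjusted p under 0.05 or under DESeq2 are not given here. These counts are therefore no result about the 10 genes as a set. After 18 h 7 genes had changed in parental cells (6 higher, 1 lower), 6 in #A-59 (5 up, 1 down) and 4 in #B-20 (all higher), beside 32.6%, 31.8% and 22.8% of all genes tested, of which 16.4%, 14.7% and 11.4% of all genes were higher. The median log2 fold change of the 10 genes was 0.35, 0.37 and 0.11 at 18 h, against 0.04, 0.02 and 0.03 over all tested genes. The 18 h groups were set against the same untreated libraries as the 6 h groups. B cell markers moved with time as well. Of Cd79a, Cd79b, Ighm, Pax5, Ms4a1, Ebf1 and Cd22, 4 of 7 were lower at 6 h in parental cells and 5 of 7 were higher at 18 h in each genotype. From 6 h to 18 h, 7 of 7 were higher in parental and #A-59 cells and 6 of 7 in #B-20. Of all genes, 38.3%, 31.9% and 22.6% passed there in either direction. Their summed level in parental cells was 7661 to 8363 CPM at 0 h, 5529 to 5752 CPM at 6 h and 10280 to 10559 CPM at 18 h. In #A-59 it was 7991 to 8013, 6745 to 7354 and 10630 to 11296 CPM, and in #B-20 6798 to 7066, 5728 to 5941 and 8808 to 9284 CPM. Their part in the responses of the 10 genes was not tested.

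Itpr2 showed the largest increase of the 10 genes at 18 h. In parental cells it had 148 and 176 CPM before stimulation, 132 and 151 CPM after 6 h and then 304 and 318 CPM after 18 h. #A-59 had 151 and 144 CPM before stimulation, 183 and 179 CPM after 6 h and then 323 and 266 CPM after 18 h. For #B-20 the levels were 160.3 and 151 CPM, 157 and 146 CPM, and 316 and 264 CPM. The 18 h libraries lay above all earlier libraries in each genotype, and the genotypes overlapped at 18 h. Its log2 fold change at 18 h was 0.94 in parental cells (SE 0.11, adjusted p = 1.74e-06), 1.0002 in #A-59 (adjusted p = 1.03e-06) and 0.90 in #B-20 (adjusted p = 8.84e-06). Only the value of #A-59 exceeded 1, and when libraries were left out in turn it lay between 0.83 and 1.11. Itpr1 rose at 18 h in parental cells, by 0.36 (adjusted p = 0.00188), and in #A-59, by 0.51 (adjusted p = 8.89e-05), with 0.11 (adjusted p = 0.35) in #B-20. The parental call was lost without replicate 1 at 0 h or either library at 18 h (adjusted p from 0.0192 to 0.0781) and without a filter on low counts (adjusted p = 0.0279). At 6 h, Itpr1 was lower in #A-59, by −0.38 (adjusted p = 0.00611), which was lost without either library at 0 h or replicate 1 at 6 h (adjusted p from 0.0255 to 0.051) and with only the groups compared (adjusted p = 0.179).

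Ppp3ca and Nfatc2 also rose at 18 h in all genotypes. Ppp3ca increased by 0.62 in parental cells (SE 0.09, adjusted p = 1.26e-05), 0.96 in #A-59 (adjusted p = 1.42e-07) and 0.53 in #B-20 (adjusted p = 0.000172). Its 18 h level in both clones still remained below the untreated parental level of 137 and 144 CPM. Nfatc2 had 21.9 and 23.0 CPM in untreated parental cells, 20.7 and 19.1 CPM after 6 h and then 33.9 and 36.2 CPM after 18 h. In #A-59 the levels were 23.9 and 20.04, 26.7 and 25.1, and 36.8 and 33.5 CPM, and in #B-20 20.1 and 18.1, 20.1 and 18.5, and 31.1 and 29.9 CPM. The 18 h libraries were again above all earlier ones of their genotype. The log2 fold change was 0.64 in parental cells (adjusted p = 9.5e-05), 0.67 in #A-59 (adjusted p = 6.02e-05) and 0.68 in #B-20 (adjusted p = 0.00013). These increases of Itpr2, Ppp3ca and Nfatc2 were kept under every alternative run.

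Nfatc1 went the other way. It decreased at 18 h by −0.61 in parental cells (SE 0.11, adjusted p = 0.000224) and by −0.46 in #A-59 (adjusted p = 0.00273). In #B-20 the value was −0.38 (adjusted p = 0.0137), which DESeq2, the replicate block, the GC offset and the fit with no filter on low counts called. At 6 h it was already lower in #A-59, by −0.53 (adjusted p = 0.00433). The #A-59 call at 6 h was lost without replicate 1 at 0 h or replicate 2 at 6 h (adjusted p from 0.02 to 0.0621) and with only the groups compared (adjusted p = 0.113), and that at 18 h without replicate 1 at 0 h or replicate 2 at 18 h (adjusted p from 0.0439 to 0.0696). Nfatc3 had log2 fold changes between −0.10 and 0.18 over the 6 responses, and none passed the test.

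Stim1 rose at 18 h in the 3 genotypes by similar amounts, from 93.9 and 92.8 to 126 and 125 CPM in parental cells, from 94.8 and 81.4 to 131 and 111 CPM in #A-59, and from 92.0 and 79.7 to 123 and 112 CPM in #B-20. Log2 fold changes were 0.43 (SE 0.10, adjusted p = 0.00175), 0.46 (adjusted p = 0.001) and 0.45 (adjusted p = 0.00159). The parental call was lost without any of its 4 libraries (adjusted p from 0.0191 to 0.025), the #A-59 call without replicate 2 at 0 h or replicate 1 at 18 h (adjusted p from 0.0279 to 0.0504), and the #B-20 call without the same numbers of its own libraries (adjusted p from 0.0392 to 0.042). Stim2 passed the test in parental cells at 18 h, with 0.35 (adjusted p = 0.00448), and had 0.29 (adjusted p = 0.0125) in #A-59 and 0.11 (adjusted p = 0.354) in #B-20. The parental call of Stim2 was lost in 11 of 18 fits without 1 library, those without any parental library, any #A-59 library of 18 h, replicate 1 of #B-20 at 0 h or either #B-20 library of 6 h (adjusted p from 0.0112 to 0.0525), and without a filter on low counts (adjusted p = 0.094).

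Rcan1 and Orai1 were at the margin of the test after 6 h. In parental cells Rcan1 had a log2 fold change of 0.53 at 6 h (SE 0.13, adjusted p = 0.0105), with both 6 h libraries above both untreated ones, and 6 of the 8 alternatives other than leaving out a library called it. At 6 h #A-59 had −0.12 and #B-20 had 0.08. At 18 h they were 0.11 in parental cells, −0.39 in #A-59 (adjusted p = 0.0319) and −0.26 in #B-20 (adjusted p = 0.18). Orai1 at 6 h had −0.65 in parental cells (SE 0.17, adjusted p = 0.0165), −0.66 in #A-59 (adjusted p = 0.0153) and −0.19 in #B-20 (adjusted p = 0.691). Its untreated parental libraries held 14.9 and 20.9 CPM and the 6 h libraries 11.8 and 10.9 CPM, so that the groups did not overlap. DESeq2, the GC offset and the fit with no filter on low counts called Orai1 at 6 h in parental and #A-59 cells.

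**Figure D3:**
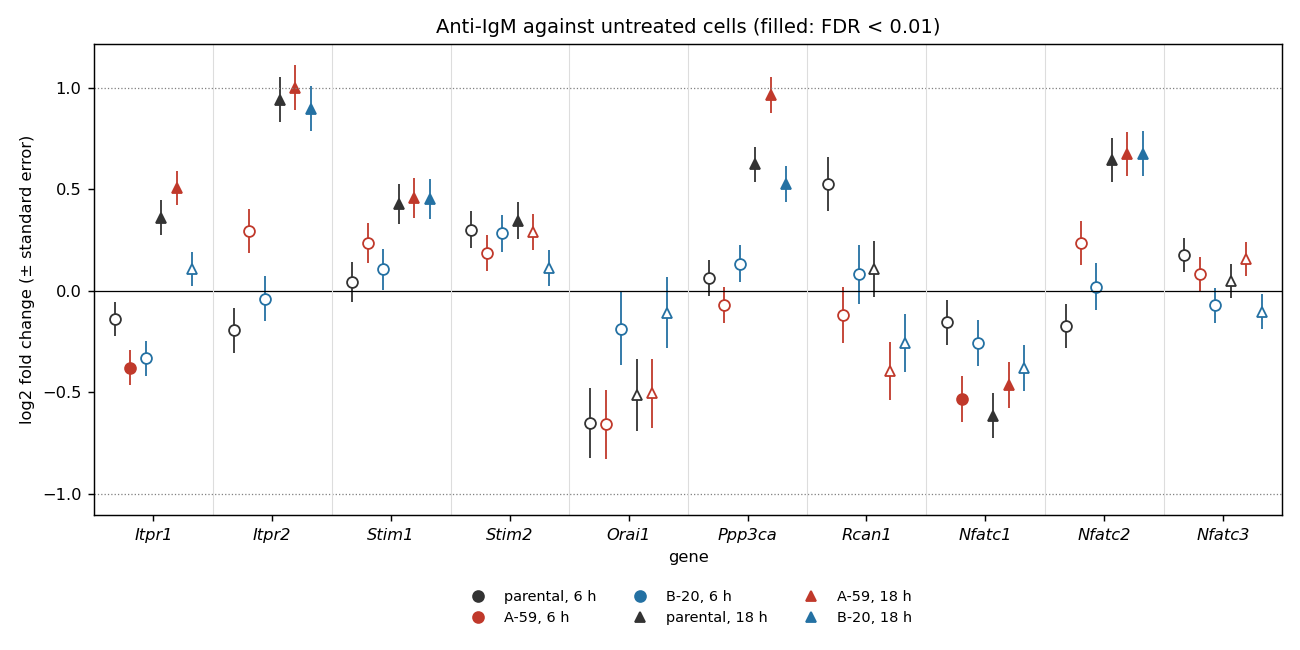
Log2 fold change of each gene after 6 h (circles) and 18 h (triangles) of anti-IgM against untreated cells of the same genotype, for parental cells (black), #A-59 (red) and #B-20 (blue), with bars of ± 1 SE and filled symbols for an FDR under 0.01. At 18 h Itpr2, Stim1, Ppp3ca and Nfatc2 are above 0 and past the test in the 3 genotypes, while at 6 h only Itpr1 and Nfatc1 of #A-59 are filled.

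Whether the response of a clone differed from the parental response was tested as an interaction. None of the 40 values of the 10 genes passed the test, beside 0.646% and 0.0392% of all genes for #A-59 at 6 h and 18 h and 0.183% and 0.222% for #B-20. At an unadjusted p under 0.05 there were 4 and 2 genes for #A-59 at 6 h and 18 h and 1 gene at each time for #B-20, and no alternative called any. The share of all genes at this unadjusted p is not given here. The largest was Rcan1 at 6 h in #A-59, at −0.65 (95% interval from −1.02 to −0.27, adjusted p = 0.0996), and in #B-20 it was −0.45 (interval from −0.83 to −0.06, adjusted p = 0.583). The lower Rcan1 of stimulated clones is thus shown against parental cells at 6 h and 18 h, and a different response is not. For Ppp3ca the interaction of #A-59 at 18 h was 0.34 (adjusted p = 0.516), and the others were between −0.13 and 0.07.

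From 6 h to 18 h of stimulation, 6 of the 10 genes changed in parental cells (5 higher, 1 lower), 4 in #A-59 and 4 in #B-20 (all higher). Of all genes tested, 38.3%, 31.9% and 22.6% passed in either direction. The share of higher calls alone is not given here, so that the directions cannot be set against it. Itpr2 rose by 1.14 in parental cells (adjusted p = 1.3e-07), 0.70 in #A-59 and 0.93 in #B-20. Itpr1 rose by 0.50, 0.88 and 0.44, Ppp3ca by 0.56, 1.03 and 0.39, and Nfatc2 by 0.82, 0.44 and 0.65. In parental cells Stim1 rose by 0.38 (adjusted p = 0.00338) and Nfatc1 decreased by −0.46 (adjusted p = 0.00236) in addition. The Stim1 call was lost without any of the 4 parental libraries compared (adjusted p from 0.028 to 0.0407) or with no filter on low counts (adjusted p = 0.0134), and the Nfatc1 call without replicate 2 at 6 h or either library at 18 h (adjusted p from 0.0126 to 0.019). In #A-59 the Nfatc2 call was lost without replicate 2 at 6 h or replicate 1 at 18 h (adjusted p from 0.017 to 0.0545), and with no filter on low counts or only the groups compared (adjusted p up to 0.0414). In #B-20 the Itpr1 call was lost without replicate 2 of either time (adjusted p from 0.0118 to 0.0151), and the Ppp3ca call without either library at 6 h or replicate 2 at 18 h (adjusted p from 0.022 to 0.0482).

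The clones were also compared with each other. Itpr1 was lower in #B-20 than in #A-59 at 0 h, by −0.62 (SE 0.09, adjusted p = 4.32e-05), at 6 h, by −0.57 (adjusted p = 6.86e-05), and at 18 h, by −1.02 (adjusted p = 6.71e-08), where it was a DEG. At 0 h and 18 h it was the only one of the 10 genes past the test, beside 8.41% and 16.2% of all genes tested. At 6 h Nfatc2 (−0.42), Ppp3ca (0.34) and Stim2 (0.34) passed as well, beside 18.7%. With only the groups compared Itpr1 at 6 h was not called (adjusted p = 0.0156). The calls of these 3 genes were not stable. They were lost with only the groups compared and with the GC offset, and without any of the parental libraries, replicate 1 of #A-59 at 6 h or either 6 h library of #B-20, of which replicate 2 stood apart above. Without replicate 1 of #A-59 at 18 h, replicate 2 of #A-59 at 18 h or either 0 h library of #B-20 the calls of Ppp3ca and Stim2 were lost, and that of Stim2 also without either #A-59 library of 0 h. Over these fits the adjusted p was from 0.0109 to 0.0717 for Nfatc2, from 0.0112 to 0.101 for Ppp3ca and from 0.011 to 0.105 for Stim2.

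Other genes of the pathway were grouped in lists of related function. Beside their counts against parental cells stand 9.56%, 22.7% and 10.4% of all genes for #A-59 at 0, 6 and 18 h. For #B-20 these shares were 10.7%, 14.2% and 14.2%. Whether a clone responded differently was tested as an interaction in these lists too, and only Inpp1, given below, passed. Of 13 further NFAT and calcineurin genes, all tested, 0 were higher and 1 lower in #A-59 at 0 h and at 6 h, and 1 higher and 1 lower at 18 h. In #B-20 1 was higher and 2 lower at 0 h, 2 higher and 2 lower at 6 h, and 0 higher and 2 lower at 18 h. Akap5, which encodes an anchor protein for calcineurin and protein kinase A, rose at 18 h of stimulation by 1.964 in parental, 1.978 in #A-59 and 1.17 in #B-20 cells. It was lower in #B-20 than in parental cells by −1.08 at 6 h (adjusted p = 4e-06) and by −1.34 after 18 h (adjusted p = 7.5e-08), but not in #A-59, where the values were −0.07 and 0.00. Rcan2, a paralog of Rcan1 that is close to the limit of detection here, rose in parental cells at 18 h to a mean of 1.87 CPM, by 2.70 (SE 0.46, adjusted p = 0.00011), while #A-59 had 0.41 CPM and #B-20 had 0.273 CPM. Against parental cells its log2 fold change at 18 h was −2.26 (adjusted p = 0.002) in the former and −2.79 (adjusted p = 0.00017) in the latter clone. None of the 13 genes passed the test as an interaction, so that a different response of a clone is not shown. Nfatc4 was lower in #A-59 at 0 h, from a mean of 1.41 CPM in parental cells to 0.221 CPM. Rcan3, by contrast, rose at 18 h in all genotypes, by 0.46 to 0.57, and did not pass the test in any clone comparison.

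**Figure D4:**
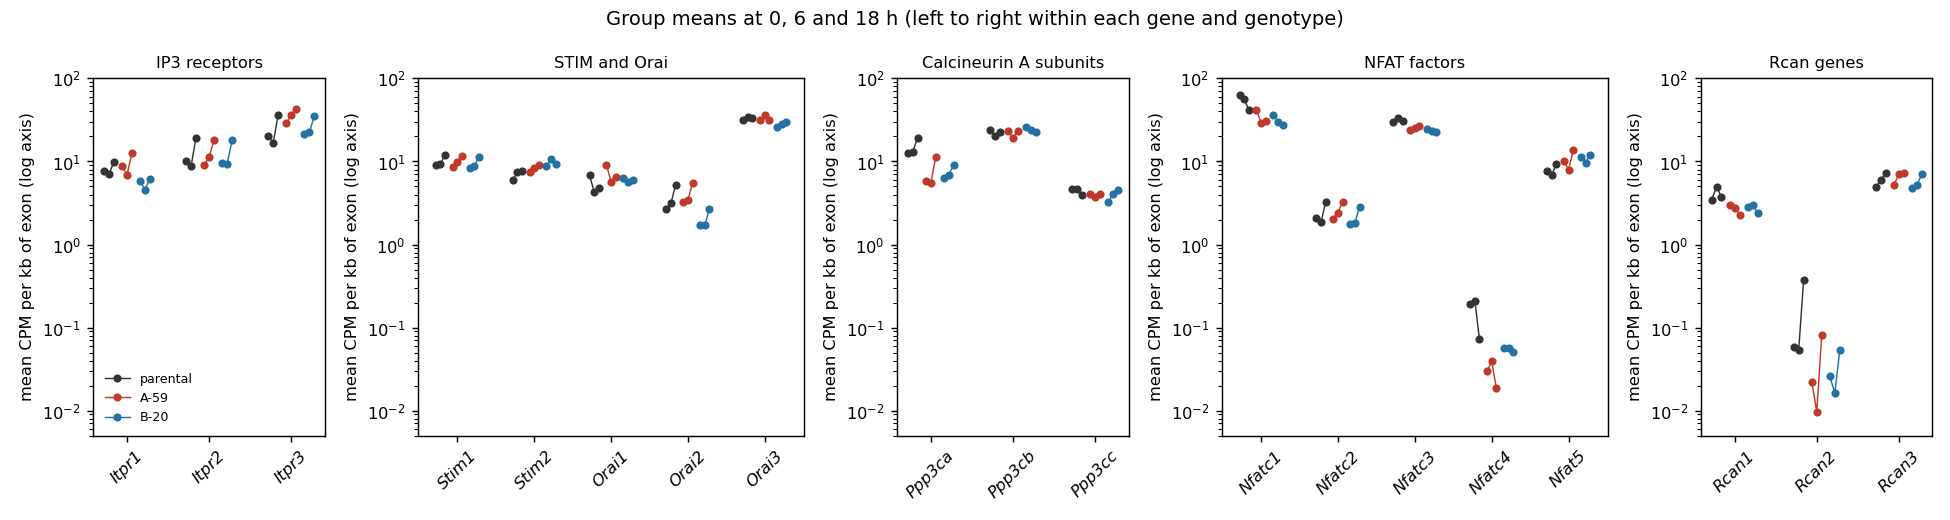
Mean level of 2 libraries in CPM per kb of exon (log axis) for paralogs of 5 families, with the 0, 6 and 18 h groups from left to right and lines joining them within parental cells (black), #A-59 (red) and #B-20 (blue). Ppp3ca lies lower in both clones than in parental cells at each time, and Rcan2 and Nfatc4 lie far below the other genes of their families.

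Of 10 further genes of store-operated entry and calcium release, 9 were tested. In #A-59 1 was higher and 3 lower at 0 h, 2 higher and 3 lower at 6 h, and 0 higher and 3 lower at 18 h, and in #B-20 0 were higher and 3 lower at each time. Ryr2, a calcium release channel best known from heart muscle, had means of 2.36 to 3.14 CPM in parental cells and 0 counts in all 0 h and 6 h libraries of #A-59. Set against a floor of 3 counts per library, this is at least 18.6-fold lower at 0 h and 16-fold lower at 6 h. In #A-59 at 18 h it had 0 and 1 counts, and the log2 fold change of #B-20 was between −3.42 and −2.67. Cracr2a, an EF-hand protein that binds Orai1 and STIM1, was lower by −1.50 in #A-59 at 6 h and by −1.61 in #B-20 at 6 h. Cracr2b, a paralog, was higher in #A-59 at 6 h by 1.67 (adjusted p = 0.00968). Both had few counts, from 12 to 94 for Cracr2a and from 9 to 62 for Cracr2b over all libraries. Ryr1 was lower by −1.27 in #A-59 (adjusted p = 6.6e-06) and by −0.93 in #B-20 (adjusted p = 0.00025) at 0 h. Itpr3 rose at 18 h in all genotypes, by 0.59 to 0.82. It was higher in #A-59 than in parental cells at 6 h, by 1.11 (SE 0.12, adjusted p = 1.2e-06), but had 0.40 (adjusted p = 0.02) in #B-20. Orai2 was lower in #B-20 alone at each time, by −0.63 to −0.95, with values from 0.08 to 0.29 in #A-59.

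IP3 is made by phospholipases and removed by kinases and phosphatases, and all 8 genes of this list were tested. None passed the test in #A-59 at 0 h or 18 h or in #B-20 at 18 h. In #A-59 at 6 h 2 were higher and 3 lower, in #B-20 at 6 h 2 were lower, and in #B-20 at 0 h 1 was lower. Itpka, an IP3 kinase, rose at 6 h of stimulation by 0.996 in parental cells (adjusted p = 0.00024) and 1.22 in #A-59 (adjusted p = 9e-05), with 0.52 (adjusted p = 0.15) in #B-20. At 18 h it was lower than in untreated cells by −1.01 in parental cells and −0.93 in #A-59. Inpp1 was lower in #A-59 than in parental cells at 6 h, by −1.32, and its response at 6 h differed from the parental response by −1.29 (adjusted p = 0.0075).

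Calcium is cleared by pumps, exchangers and mitochondria, and 11 of 14 genes of this list were tested. At 18 h of stimulation 4 were higher and 1 lower in parental cells, 5 higher and 1 lower in #A-59, and 3 higher and 1 lower in #B-20. Of all genes tested, 32.6%, 31.8% and 22.8% passed in these comparisons. Atp2a3, the SERCA3 pump of the endoplasmic reticulum, fell in parental cells from a mean of 723 CPM to 273 CPM at 6 h, by −1.40 (SE 0.13, adjusted p = 4.8e-07), and rose at 18 h by 0.80. Its 6 h level was higher in #A-59, by 1.12 (adjusted p = 1.8e-06), and in #B-20, by 0.81 (adjusted p = 9.6e-05), than in parental cells. At 0 h and 18 h it did not pass the test in either clone, and none of the 11 genes passed as an interaction. Atp2b2, a pump of the plasma membrane, fell at 6 h as well, by −2.21 in parental cells, from a mean of 1.19 CPM. Atp2b4, with only 10 to 58 counts over all libraries, rose at 6 h in #A-59, by 1.28 (adjusted p = 0.00589). Mcu, the pore of the mitochondrial uniporter, rose at 18 h by 0.90 in parental cells and was lower in #B-20 than in parental cells by −1.10 at 18 h (adjusted p = 2e-05).

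Of 16 other cation channel genes, 14 were tested. In #A-59 none passed at 0 h, 1 was higher at 6 h and 1 lower at 18 h, and in #B-20 1 was lower at 0 h and at 6 h, and 1 higher and 4 lower at 18 h. Tpcn1, a channel of endosomes and lysosomes, was lower in #B-20 by −1.01 at 0 h, −1.06 at 6 h and −0.98 at 18 h. In #A-59 it was −0.43 (adjusted p = 0.018), −0.32 (adjusted p = 0.047) and −0.62 (adjusted p = 0.0011). Of 9 genes for NFAT kinases and scaffolds, 7 were tested. None of them passed the test in either clone at 0 h or 6 h, and 1 was higher in each clone at 18 h. Dyrk1b, a kinase of the DYRK family, fell at 18 h by −1.27 in parental cells and −1.11 in #A-59.

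Genes known as calcineurin-dependent in lymphocytes were 9, of which 6 were tested. At 6 h of stimulation 1 was lower in parental cells, 2 were lower in #A-59 and none passed in #B-20. Of all genes tested, 7.34%, 6.14% and 1.29% passed there. Egr3 fell at 6 h by −1.55 in parental cells (adjusted p = 0.0055) and −1.59 in #A-59 (adjusted p = 0.0086), and Nr4a1 at 6 h by −1.47 in #A-59, both being early genes of receptor signaling. Nr4a3 was lower in #A-59 than in parental cells at 6 h by −3.80 (SE 0.37, adjusted p = 2.2e-07), from means of 3.97 and 0.283 CPM, and in #B-20 by −1.35. Il2ra, the alpha chain of the interleukin-2 receptor, was higher in #A-59 at 0 h by 1.24 and in #B-20 by 0.80. In each clone, 1 gene of this list was higher and 1 lower at 0 h and at 6 h, and at 18 h 1 was higher in #A-59 and none passed in #B-20.

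The genes whose group means followed a member most closely were ranked by Pearson's r over the 9 groups among 13922 genes, as a description over libraries that share their genotype and time. For Rcan1 these were Mreg (r = 0.962), Pttg1 (0.958), Tor2a (0.956), Rcbtb1 (0.946) and Rragd (0.945). For Nfatc1 they were Nprl3 (0.967), Slc39a6 (0.967), Clcn5 (0.966), Rasal1 (0.959) and Abtb3 (0.954). For Itpr1 they were B4galt5 (0.975), Terf2ip (0.975), Rcor3 (0.972), Rnf166 (0.97) and Bloc1s2 (0.965).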

How the data were processed

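Gene counts of 18 RNA sequencing libraries were used, grouped by their labels. The authors deposited counts, as whole reads per Ensembl gene that are not normalized, from non-stranded mRNA libraries read single-end, aligned with STAR 2.5 to GRCm38 and counted with featureCounts 1.5.0-p1 (versions per the submitters' processing notes). Without strand, reads of overlapping genes on opposite strands cannot be told apart where their exons overlap. Levels (CPM) and tests were computed in R 4.3.3 with edgeR 4.0.16, using filterByExpr (15318 genes kept), TMM and robust quasi-likelihood with 1 mean per group over all 18 libraries, because 2 libraries per group leave few degrees of freedom. P-values were adjusted over all genes per comparison (Benjamini-Hochberg). SE is the fold change divided by the root of F. Counting depth of 11223588 to 29655262 gives each of the 10 genes at least 140 counts per library.

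The 10 genes, the lists and the comparisons were chosen with earlier results of these data known. Named are all 10 genes, Tfeb, up to 4 DEGs of each list with the largest change, and the 5 genes most alike to Rcan1, Nfatc1 and Itpr1. Other paralogs (Itpr3, Orai2, Orai3, Rcan3, Ppp3cb, Ppp3cc, Ppp3r1) and Esrp2 were chosen after their values were seen. Exon lengths came from GENCODE vM39 (93.2% of genes matched by identifier), coordinates and promoter windows from RefSeq on GRCm38.p6. Alternatives were DESeq2 1.42.0, its size factors in edgeR, other filters on low counts, a fit of only the groups compared, a block on replicate number, a GC offset (loess, span 0.5), both together, and each library left out. The full B cell marker list is not reported here.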

Additional observations from a re-analysis of the deposited data

Results flagged for a closer look

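The difference between #B-20 and #A-59, each set against the same parental cells, was itself tested and passed at all times for Itpr1. It was −0.62 untreated, −0.57 after 6 h and −1.02 after 18 h on the log2 scale, and the calls at 0 h and 18 h were kept under every alternative. At 6 h, where 18.7% of all genes passed, it was also called at −0.42 for Nfatc2, 0.34 for Stim2 and 0.34 for Ppp3ca, but these calls were lost in 9, 15 and 13 of 18 fits without 1 library, with only the groups compared and with the GC offset. No outlier test within a group was run on the 10 genes, since each group holds 2 libraries.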

How the results depend on the processing

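Of 64 calls among 220 values of the 10 genes in 22 comparisons, 51 were kept under all 8 alternatives other than leaving out a library, 38 in all 18 fits without 1 library, and 37 under every alternative. None changed direction. Of 3951 values past the test neither in the reported fit nor in the alternative, 125 had the other sign. The number of genes past the test moved most as follows, with smaller shifts left out. In parental cells at 6 h it was 0 and became 2 under DESeq2, with only the groups compared and under the GC offset, 1 without a filter on low counts, with at least 10 counts in every library and under the replicate block, and 3 under block and GC offset together. In #A-59 at 6 h it went from 2 to 0 with only the groups compared and to 3 under DESeq2, without a filter, under the block, the GC offset and both together, and in #B-20 at 6 h from 0 to 1 under DESeq2 and under block and GC offset together. Untreated #A-59 against parental cells gave 4 in place of 2 under the GC offset with or without the block, and 3 under DESeq2 and the block. Between the clones it went at 0 h from 1 to 2 without a filter, at 6 h from 4 to 2 without a filter, 0 with only the groups compared, 1 under the GC offset and 2 with the block added, and at 18 h from 1 to 2 under DESeq2, the block and the GC offset and 3 under both together. The causes were not tested.

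Without 1 library the number lay at 6 h against 0 h between 0 and 2 in parental cells, 0 and 3 in #A-59 and at 0 in #B-20, and at 18 h between 4 and 7, 5 and 7, and 3 and 5. Against parental cells it lay between 1 and 3, 3 and 5, and 1 and 4 for the successive times of #A-59, and 3 and 5, 5 and 6, and 2 and 6 for those of #B-20. From 6 h to 18 h it lay between 4 and 7, 3 and 4, and 2 and 5, and between the clones it was 1 at 0 h, between 1 and 4 at 6 h and between 1 and 2 at 18 h. All interactions stayed at 0. A group left with 1 library is assumed to vary like the other groups.

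Same-numbered libraries of 36 pairs of groups had correlations of their deviations between −0.0742 and 0.594 (median 0.127, 23 over 0.1). Within a genotype all 9 were over 0.1, from 0.129 to 0.594, and between genotypes not all were. With 2 numbers a group the correlations were not used to decide on pairing, and the fit without the block was kept. The replicate block alone lost no call and gained 8. These were Rcan1 in parental cells at 6 h (adjusted p = 0.00502) and from 6 h to 18 h (0.0096), Orai1 in #A-59 at 6 h (0.00952), Nfatc1 in #B-20 at 18 h (0.00731), Stim1 in #B-20 from 6 h to 18 h (0.00252), Nfatc3 in #A-59 against parental cells at 0 h (0.00986), Nfatc2 likewise at 6 h (0.00578) and Ppp3ca between the clones at 18 h (0.00799). With 2 libraries a group and clones of 1 cell each, p-values measure the spread between experiments and not between clones. That spread is pooled over all 9 groups. Replicate scatter was unequal at 6 h. Its chi-square per degree of freedom was 3.57 for the parental line, 33.25 for #A-59 and 58.21 for #B-20. The pooled spread may thus understate the error of the clones at 6 h. With only the groups compared, genes past the test at 6 h against the parental line went from 3473 to 1610 for #A-59. For #B-20 they went from 2179 to 3231. Rcan1 and Orai1 had the fewest counts, with 140 and 148 counts in their lowest libraries.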
